A study of Mus musculus with 12 samples.

Results

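The average effect of sorafenib on the mouse heart was estimated from all 12 libraries of the series, by setting the 6 libraries whose labels name sorafenib against the 6 whose labels do not. The 6 sorafenib libraries were 3 labelled sorafenib and 3 labelled sorafenib_plx3397. The other 6 were 3 labelled ctrl and 3 labelled plx3397. Members were chosen by their labels alone, with no measured value, and a term for PLX3397 (present or absent) stood beside the term for sorafenib (present or absent), so that the sorafenib term is the mean of its effects without and with PLX3397. All hearts came from C57BL/6J mice and were profiled after 28 days of sorafenib dosing in the groups that received it. Sorafenib is an oral inhibitor of several kinases, among them the receptors for VEGF and PDGF, that is used against cancer and can harm the heart. PLX3397 blocks CSF1R, the receptor tissue macrophages need to survive, and is the macrophage clearance agent of the design. Neither dose nor route is labelled, nor the animals' sex or age, the hour of sampling or any vehicle for the controls, and nothing says whether each library came from a separate animal. The p-values below therefore measure only the spread between these libraries.

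The tissue was whole heart, so every level is a sum over cardiomyocytes, vessel cells, fibroblasts, macrophages, nerve and blood, and a lower level can come from fewer cells of a type or from less RNA per cell, which cannot be told apart. Markers of heart muscle made up 60520 to 82610 CPM (counts scaled to library size) in the 12 libraries, so the labelled tissue is borne out. The 6 lung markers summed to 26.4 to 223 CPM in controls and 52.4 to 61.8 CPM with PLX3397. Their sum was 20.6 to 44.7 CPM with sorafenib and 35.0 to 265 CPM with both agents. Any carried-over lung tissue was not tested. The libraries labelled plx3397 held 791 to 858 CPM of 30 resident macrophage markers in sum, inside the range of the controls (771 to 1026 CPM), so the label of macrophage clearance is not borne out by these markers in the absence of sorafenib. Sums in the sorafenib libraries were 422 to 723 CPM, and in those labelled with both agents 318 to 435 CPM. On the first principal component (22.8% of the variance) PLX3397 replicate 1 lay at -46.3 with the controls (-61.2 to -45.5), PLX3397 replicates 2 and 3 at 6.97 and 5.95, and the 6 sorafenib libraries at 14.5 to 53.4. Library totals were alike, at 61626404 to 64537365 estimated counts, with 29.2% to 33.6% of them from the mitochondrial genome. The TMM scaling factors of the sorafenib libraries (0.933 to 0.995) lay below those of the other 6 (1.01 to 1.09).

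A pair of systems recurs in the results. In the circadian clock, ARNTL (BMAL1) pairs with CLOCK or NPAS2 and switches on genes through E-boxes, among them the period, cryptochrome, DBP and REV-ERB genes, whose proteins feed back. REV-ERB proteins (NR1D1, NR1D2) repress and ROR proteins activate genes such as Arntl, Npas2 and Nfil3 through ROR elements, while DBP, TEF and HLF activate and NFIL3 represses through D-boxes. The heart runs its own copy of this clock, which sets daily rhythms of metabolism and of ion channels. In the second system, resident macrophages of the heart take up debris from muscle cells, present antigen on MHC class II and depend on CSF1R.

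Promoters of genes that led the rises and falls are printed here to show the elements that some of them carry. They are RefSeq sequences of build GRCm38.p6, from 250 bases before to 50 after the gene start, written 5′ to 3′ on the gene's strand, with matches in capitals. For E-boxes the motif was CACGTG, for D-boxes TTATGTAA or TTACGTAA, for the ROR element core AGGTCA and for the xenobiotic response element core GCGTG, each searched on both strands. E-box and xenobiotic core share the letters CGTG, but neither contains the other.
Ciart (chr3:95882179-95882478, minus strand, E-box): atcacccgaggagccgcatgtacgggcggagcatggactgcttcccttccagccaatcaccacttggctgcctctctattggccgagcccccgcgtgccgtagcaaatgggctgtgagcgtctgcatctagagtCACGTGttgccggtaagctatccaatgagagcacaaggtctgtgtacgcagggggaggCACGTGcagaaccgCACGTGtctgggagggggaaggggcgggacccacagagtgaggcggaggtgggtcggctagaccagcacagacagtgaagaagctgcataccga
Bhlhe41 (chr6:145865371-145865670, minus strand, E-box): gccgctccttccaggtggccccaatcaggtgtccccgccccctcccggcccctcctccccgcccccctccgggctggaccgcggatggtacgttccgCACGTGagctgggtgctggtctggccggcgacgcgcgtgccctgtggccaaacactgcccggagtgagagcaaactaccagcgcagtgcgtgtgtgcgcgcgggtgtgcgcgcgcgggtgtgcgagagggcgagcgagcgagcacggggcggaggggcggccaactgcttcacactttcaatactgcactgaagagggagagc
Tef (chr15:81802423-81802722, plus strand, E-box): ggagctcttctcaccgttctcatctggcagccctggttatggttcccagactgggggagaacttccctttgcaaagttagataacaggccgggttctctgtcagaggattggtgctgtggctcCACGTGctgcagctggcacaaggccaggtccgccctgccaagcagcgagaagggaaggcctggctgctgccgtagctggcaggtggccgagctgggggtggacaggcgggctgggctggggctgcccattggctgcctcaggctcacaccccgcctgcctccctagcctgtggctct
Per3 (chr4:151044616-151044915, minus strand, D-box): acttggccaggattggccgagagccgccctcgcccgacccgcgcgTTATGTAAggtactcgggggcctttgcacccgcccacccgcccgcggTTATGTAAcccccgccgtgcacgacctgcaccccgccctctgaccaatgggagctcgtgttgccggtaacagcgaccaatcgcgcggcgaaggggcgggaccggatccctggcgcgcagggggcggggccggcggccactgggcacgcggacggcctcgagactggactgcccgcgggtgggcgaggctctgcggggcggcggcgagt
Arntl (chr7:113207261-113207560, plus strand, ROR element): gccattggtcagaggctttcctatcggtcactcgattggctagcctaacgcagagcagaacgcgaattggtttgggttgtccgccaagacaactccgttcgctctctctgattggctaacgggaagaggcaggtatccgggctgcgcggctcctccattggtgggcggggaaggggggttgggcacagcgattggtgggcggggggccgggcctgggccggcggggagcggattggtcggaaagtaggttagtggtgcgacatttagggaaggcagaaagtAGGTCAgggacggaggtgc
Cyp1a1 (chr9:57697363-57697662, plus strand, xenobiotic core): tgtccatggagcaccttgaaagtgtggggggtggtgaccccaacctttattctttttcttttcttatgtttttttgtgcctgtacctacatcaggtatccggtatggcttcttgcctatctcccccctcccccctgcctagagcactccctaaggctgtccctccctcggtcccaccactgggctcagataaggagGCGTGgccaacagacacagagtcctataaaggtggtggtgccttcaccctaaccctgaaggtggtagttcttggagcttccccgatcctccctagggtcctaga
Ciart carried 3 E-boxes, 116, 58 and 44 bases before the start, and Bhlhe41 and Tef carried 1 each. Of all 32851 promoter windows in the table, 7.15% held an E-box. Per3 carried 2 D-boxes, 205 and 158 bases before its start, against 1.06% of all windows with at least 1. The second of the Arntl windows held 1 ROR element, 31 bases after its start, as 16.3% of all windows did. Nfil3, which fell, Nr1d2, which rose, and Per1 and Clock, which were not called, each held 1 as well, and the window of Npas2, which fell, held 0. Cyp1a1 held 1 xenobiotic core, 54 bases before the start, a short motif found in 32.4% of all windows. Windows were listed for 16 of the 19 clock genes (not, for example, for Per2 and Bhlhe40), and of the other clock genes Per1 and Cry1 held an E-box. The window of Dbp held 2 xenobiotic cores and none of the other motifs. A match describes the letters only.

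Of 18897 genes tested, 2213 (11.7%) differed between the 6 sorafenib libraries and the other 6 at an adjusted p under 0.05 (edgeR's quasi-likelihood test, Benjamini-Hochberg adjustment over all genes, as everywhere below), and these are the genes said to have risen or fallen. There were 1027 rises (5.43% of the genes tested) and 1186 falls (6.28%). Rises were small, with a median log2 fold change of 0.37, and falls larger, with a median of -0.75, against -0.01 over all genes tested. Only 53 rises but 392 falls reached 2-fold, and 1283 of the called genes changed by less than 1.5-fold. In 774 genes (4.1%) the 6 sorafenib libraries did not overlap the other 6 in CPM, and 706 of these were called, 276 as rises and 430 as falls. The shares of 5.43%, 6.28% and 4.1% are the background for the list counts below. On the deposited FPKM values, with 0.5 added, the split was 343 rises to 2562 falls, or 11.8% rises against 46.4% on counts. With 0.1 added the median of all genes was itself -0.11 on that scale. The count of called genes was 1239 without PLX3397 replicate 1 and 1418 without replicate 1 of the libraries with both agents. Rises alone numbered 617, 610 and, without sorafenib replicate 1, 681, and falls 622 without PLX3397 replicate 1.

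The rises favoured long genes. The median length of all exons of a gene was 6466 bases among the rises, 3742.5 among the falls and 3751 over all genes tested. When the genes were cut into 5 equal bins by exon length, 1.43% rose and 4.13% fell in the shortest bin, and 12.4% rose and 5.3% fell in the longest. The difference in median log2 CPM between the longest and the shortest bin, each gene centred on its mean of all libraries, ran from -0.41 to 0.18 in the 6 libraries without sorafenib and from -0.02 to 0.11 in the 6 with it, so the groups overlapped. With the length trend removed library by library, an alternative added after the data were seen, 2304 genes were called, 1130 higher and 1174 lower, and 1901 of them were among the 2213.

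The average rests on a comparison without PLX3397 and a comparison with it, which share no library. In sorafenib against control alone, 460 of 17859 genes were called (2.58%), and in sorafenib with PLX3397 against PLX3397 alone 487 of 17762 (2.74%). Without control replicate 2 or sorafenib replicate 1 the first of these fell to 28, without control replicate 3 to 29, and without control replicate 1 it was 1316, so 3 libraries a group place that number loosely. The second was 79 without replicate 1 of the libraries with both agents. Of the 17303 genes tested everywhere, 67% pointed the same way in both comparisons. Among the 456 genes called without PLX3397 that were also tested with it, 444 (97.4%) pointed the same way with it, and among the 483 called with PLX3397, 466 (96.5%) did so without it. The 132 genes called in both comparisons, 28.9% of the first list and 27.3% of the second, all had the same direction, 45 higher and 87 lower. Across genes the log2 fold changes of the 2 comparisons had a Pearson r of 0.447, given as a description of 17303 genes that are not independent of each other. A test of the difference between these comparisons called 0 genes (0%) with edgeR, where 1099 had an unadjusted p under 0.05 and the smallest adjusted p was 0.530. DESeq2 called 5. On simulated counts, where only genes of at least 1 FPKM were changed, the same interaction test recovered 4.48% of genes changed 1.5-fold and 61.2% of genes changed 2-fold. Differences of 1.5-fold between the comparisons were thus poorly detectable, and some of 2-fold would be missed.

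**Figure D1:**
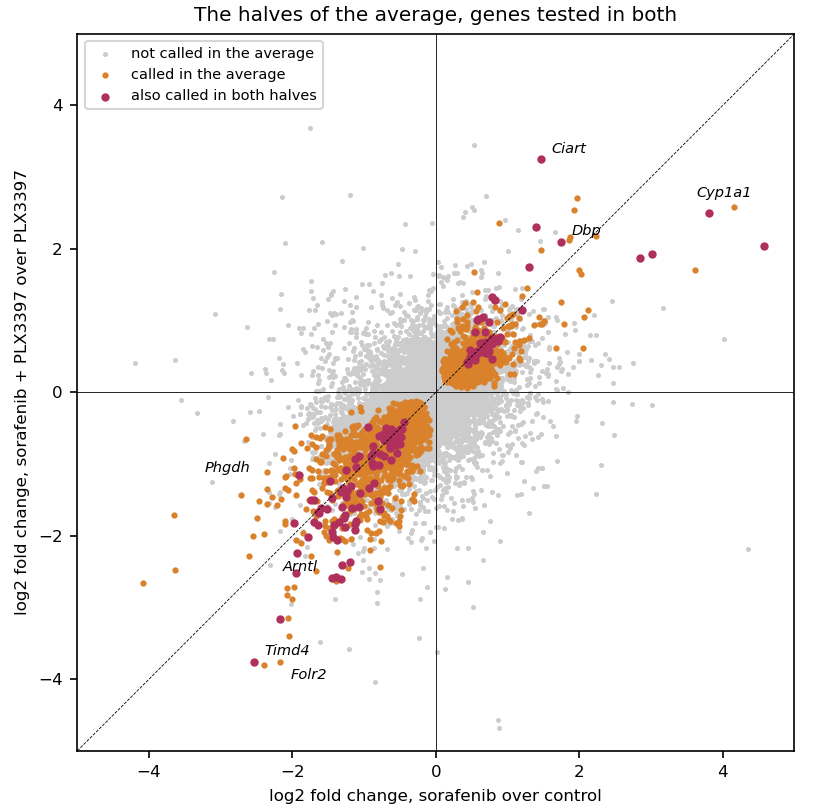
Log2 fold change of each gene for sorafenib over control (horizontal) and for sorafenib with PLX3397 over PLX3397 (vertical); the dashed line marks equal changes and 9 genes lie outside the axes. All 2192 genes called in the average and tested in both comparisons share a direction, and the average is drawn from these same libraries. The 132 genes called in both comparisons fill the lower left and upper right.

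Cyp1a1 rose more than any other gene that passed the rule for naming. It encodes the cytochrome P450 that is the best known target of the aryl hydrocarbon receptor, a sensor of foreign and dietary compounds. Its level was 3.21, 5.62 and 3.16 CPM in the controls and 9.85, 12.1 and 12.3 CPM with PLX3397. It was 62.4, 44.8 and 60.6 CPM with sorafenib and 92.2, 58.6 and 42.2 CPM with both agents. Every sorafenib library was thus above every other library, and the average log2 fold change was 3.13 ± 0.32 (standard error, as for every log2 fold change below; adjusted p = 4.21e-04). Of 10 genes of the receptor's battery that were tested, 3 rose and 0 fell (median log2 fold change 0.16). The other risen members were Ahrr, the receptor's repressor (0.69 ± 0.14, adjusted p = 0.00565), and Ahr, the receptor itself (0.52 ± 0.11, adjusted p = 0.00945). Tiparp and Nqo1, further targets, stood at -0.01 ± 0.10 and 0.10 ± 0.12 and were not called. On the FPKM scale the median of this list was -0.03 with 0.1 added, so no direction is given for the list, while Cyp1a1 kept its direction in every alternative run.

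Among called genes of at least 1 FPKM with an established symbol and no overlap between the groups, clock genes made up 9 of the 12 largest rises and 1 of the 12 largest falls. Of 19 clock genes tested, 12 rose, 3 fell and 4 were not called, with a median log2 fold change of 0.80. In 12 of the 19 the 6 sorafenib libraries did not overlap the others, against 4.1% of all genes tested. Each fit that left out 1 library also gave 12 rises, and over all alternatives the rises numbered 7 to 12. The labels give no hour of sampling, so whether the groups were killed at the same time of day cannot be told from them, and its part in these values was not tested.

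Dbp, the transcription factor that drives daily output genes, was 19.3, 28.3 and 20.5 CPM in controls and 26.2, 32.9 and 22.7 CPM with PLX3397. With sorafenib it was 81.1, 73.2 and 73.6 CPM, and with both agents 154, 114 and 83.6 CPM. Every sorafenib library was far above the highest of the rest, with a log2 fold change of 1.92 ± 0.16 (adjusted p = 7.05e-05). Its relatives Tef and Hlf rose by 1.06 ± 0.11 each (adjusted p = 9.10e-05 and 1.08e-04). Ciart, a repressor of the ARNTL and CLOCK pair whose promoter holds 3 E-boxes, was 0.917, 1.12 and 1.25 CPM in controls, 0.631 to 0.871 CPM with PLX3397, 2.76 to 3.41 CPM with sorafenib and 4.63 to 10.4 CPM with both. Its log2 fold change was 2.35 ± 0.32 (adjusted p = 5.14e-04).

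The period genes Per2 and Per3, whose proteins repress ARNTL and CLOCK, rose by 1.86 ± 0.25 and 1.52 ± 0.15. Per2 lay at 2.85 to 5.79 CPM in the 6 libraries without sorafenib and at 9.76 to 25.3 CPM in those with it. Per3, with D-boxes in its promoter, overlaps Camta1 on the same strand, and Ciart and Dbp overlap other genes on the opposite strand. Other genes named below overlap a further gene as well, among them Folr2 and Cnp on the opposite strand. Pde2a does so on the same strand and Manf on both strands. How the counting used strand is not stated, so the counts of all these genes are less certain. Per1 was 0.69 ± 0.28 and was not called (adjusted p = 0.153), and its libraries overlapped, with 9.33 to 27.2 CPM without and 19.3 to 35.7 CPM with sorafenib. The cryptochromes parted, since Cry2 rose by 0.85 ± 0.11 (adjusted p = 3.47e-04) while Cry1 stood at -0.09 ± 0.16 (adjusted p = 0.783).

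The repressors of the second loop rose as well. Nr1d2, the gene for REV-ERB beta, was 73.4, 78.2 and 65.9 CPM in controls and 84.4, 106 and 85.4 CPM with PLX3397. It was 130, 135 and 137 CPM with sorafenib and 161, 160 and 150 CPM with both. No library of one kind reached the other kind, and the log2 fold change was 0.83 ± 0.07 (adjusted p = 1.27e-05). Nr1d1, for REV-ERB alpha, rose by 0.80 ± 0.16 (adjusted p = 0.00888). Bhlhe41 and Bhlhe40, repressors known as DEC proteins, rose by 0.86 ± 0.11 and 0.76 ± 0.13 (adjusted p = 2.45e-04 and 0.00333), and Rora, an activator at ROR elements, rose by 0.35 ± 0.07 (adjusted p = 0.00443).

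The 3 falls were Arntl, Npas2 and Nfil3, which are among the genes that REV-ERB proteins are known to repress. Any part of REV-ERB in these falls was not tested. Arntl was 17, 15.1 and 12.3 CPM in controls, 14.2, 10.4 and 15.9 CPM with PLX3397, 5.81, 6.45 and 5.61 CPM with sorafenib, and 1.47, 3.95 and 2.22 CPM with both agents. Sorafenib libraries were all below the rest, with a log2 fold change of -1.85 ± 0.26 (adjusted p = 0.00111). Npas2 fell by 1.06 on the log2 scale (SE 0.18, adjusted p = 0.0021) and Nfil3 by 0.66 (SE 0.14, adjusted p = 0.00923). Clock itself (-0.30 ± 0.13) was not called. The average is drawn from the libraries of both comparisons, and all 2192 of its called genes tested in both had the same direction in each. So did each clock gene named as risen or fallen, without and with PLX3397. The difference between these effects, tested as an interaction, was called for none of them, although for several the libraries with both agents lay furthest from the rest, as with Ciart, Tef and Arntl.

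**Figure D2:**
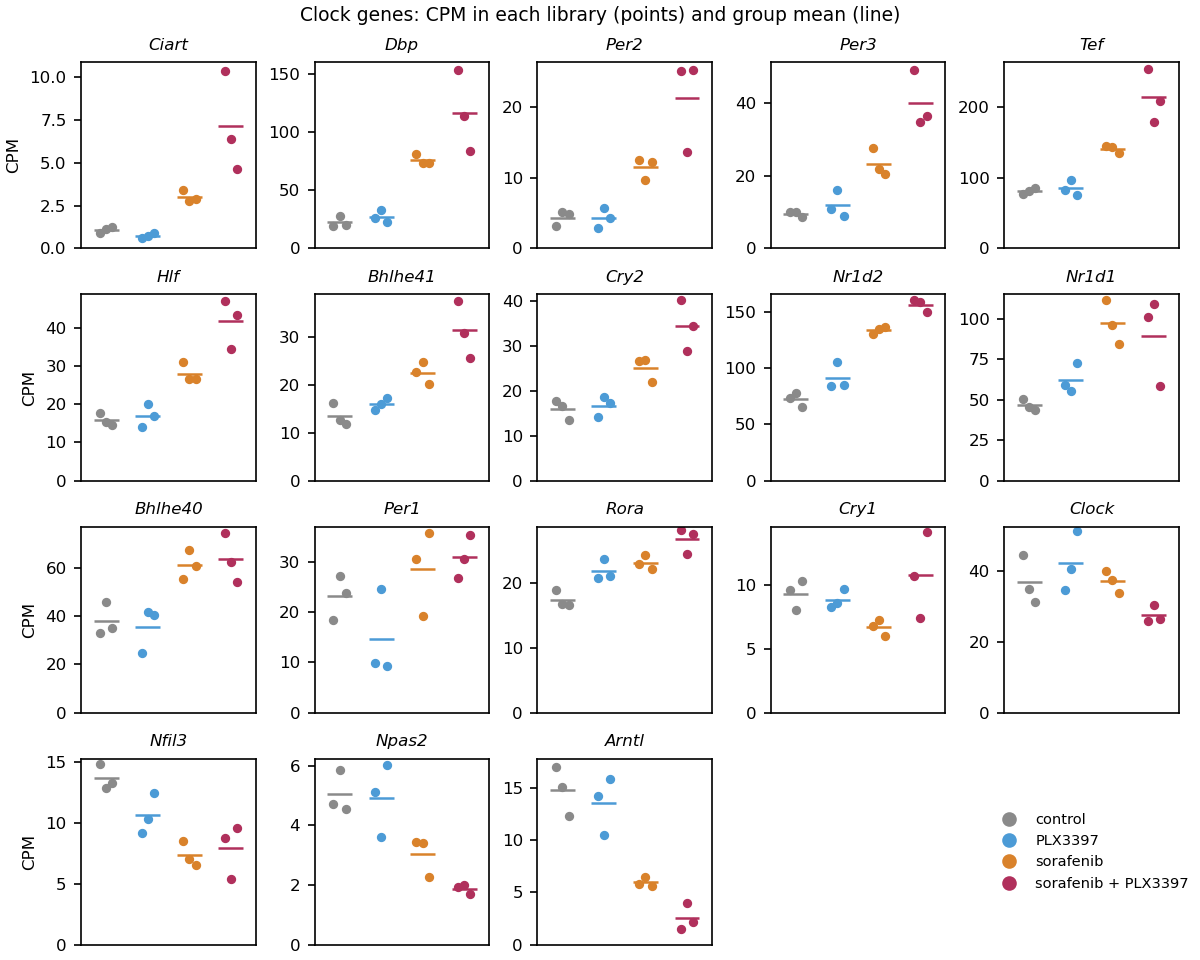
CPM of 18 clock genes in each library (points) with the group mean (line), each panel on its own scale from 0 and genes ordered by log2 fold change. Of these 12 rose, from Ciart at 2.35 to Rora at 0.35, and Nfil3, Npas2 and Arntl fell.

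Most resident macrophage markers fell. Of 30 tested, 0 rose, 24 fell and 6 were not called, and 29 had a log2 fold change below 0, with a median of -1.26. Folr2, a folate receptor of resident macrophages, fell furthest of the genes named by size. It was 10.5, 9.12 and 12.2 CPM in controls and 8.72, 8.74 and 7.98 CPM with PLX3397. With sorafenib it was 1.09, 1.44 and 4.52 CPM, and with both agents 0.439, 0.638 and 0.794 CPM. The groups did not overlap, and the log2 fold change was -2.90 ± 0.40 (adjusted p = 0.00136). Timd4, a receptor for dying cells on self-renewing resident macrophages, went from 1.89 to 2.61 CPM down to 0.0675 to 0.480 CPM (-3.09 ± 0.29, adjusted p = 5.14e-05).

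Csf1r, the receptor that PLX3397 blocks, was 59.1, 48.3 and 53.7 CPM in controls and 52.4, 38.4 and 41.8 CPM with PLX3397. It was 21.5, 19.6 and 30.4 CPM with sorafenib and 12, 15.8 and 15.5 CPM with both. No library with sorafenib reached the lowest without it, and the log2 fold change was -1.39 ± 0.13 (adjusted p = 7.74e-05). C1qa, a chain of complement C1q made by tissue macrophages, was 39.3, 36.2 and 49.9 CPM in controls, 37.3, 40.6 and 31.8 CPM with PLX3397, 13.5, 14.7 and 23.9 CPM with sorafenib and 7.56, 10.9 and 11.4 CPM with both. It fell without overlap by 1.57 on the log2 scale (SE 0.18, adjusted p = 3.40e-04).

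Other falls without overlap were Fcrls (-1.90 ± 0.15), an Fc receptor-like gene of mouse macrophages, Cd14 (-1.46 ± 0.15), a co-receptor for bacterial lipopolysaccharide, and Cx3cr1 (-2.01 ± 0.22), the fractalkine receptor. Adgre1, which encodes F4/80, fell by 1.08 (SE 0.18, adjusted p = 0.00289) with overlap, because sorafenib replicate 3 at 15.4 CPM lay above 2 of the 3 libraries with PLX3397. Cd68, a lysosomal protein of phagocytes, fell by 0.58 (SE 0.15, adjusted p = 0.0244), and there sorafenib replicate 3 reached 17.2 CPM, inside the range of the libraries without sorafenib (12 to 22.1 CPM). Mertk, the receptor for clearing dead cells, was the exception above 0, at 0.08 ± 0.15 and not called. The count of fallen markers was 20 to 27 when 1 library was left out and 11 when a change of 1.5-fold was built into the test.

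Antigen presentation by MHC class II was lower with the macrophage markers. Of 10 genes tested 7 fell and 0 rose (median -1.2), among them H2-Eb1 (-1.31 ± 0.15, adjusted p = 2.39e-04), H2-Ab1 (-1.36 ± 0.20) and the invariant chain Cd74 (-1.36 ± 0.17). The groups overlapped in each of these, where PLX3397 replicate 3 lay below sorafenib replicate 3. H2-Eb1 in that PLX3397 library was at 19.8 CPM against 31.9 to 48.9 CPM in the other 5 libraries without sorafenib and 11.3 to 21.4 CPM with it. The class II falls numbered 6 to 7 with 1 library left out and 2 to 7 over all alternatives. Of 12 genes of MHC class I and its processing 3 fell (median -0.34), the immunoproteasome subunit Psmb8 first (-0.71 ± 0.11, adjusted p = 0.00134). The class I falls numbered 1 without control replicate 2, PLX3397 replicate 1, sorafenib replicate 1 or 3 or replicate 1 of the libraries with both agents, and 5 without PLX3397 replicate 3. Of 15 genes of complement and the phagocyte oxidase 6 fell and 0 rose. Cybb, the membrane subunit of that oxidase, was 16.9, 15.5 and 15.5 CPM in controls, 15.5, 12 and 9.26 CPM with PLX3397, and 2.48 to 6.65 CPM in the 6 sorafenib libraries (-1.75 ± 0.16, adjusted p = 5.14e-05). Its cytosolic partner Ncf4 fell by 1.07 (SE 0.19).

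Markers of other white cells gave few calls. Of 12 markers of monocytes and neutrophils edgeR called 0, with 2 at an unadjusted p under 0.05, and DESeq2 called 2 as falls. The median was -0.49, at summed levels of 19.5 to 43.7 CPM over all libraries. Ccr2, the receptor of incoming monocytes, stood at 0.04 ± 0.27 (adjusted p = 0.946). Of 14 markers of T, B and NK cells edgeR and DESeq2 called 0, with 2 at an unadjusted p under 0.05 in edgeR, at sums of only 2.89 to 9.50 CPM, a depth at which changes are hard to detect. Mast cell markers were as scarce, and 2 of 6 fell, the proteases Mcpt4 (-1.77 ± 0.40, adjusted p = 0.0122) and Cpa3 (-1.55 ± 0.47, adjusted p = 0.0433), a count that was 1 without any 1 of 9 libraries. Of 27 cytokine and chemokine genes 8 fell and 0 rose (median -0.59). Tgfb1 was 19.3, 20.2 and 19.3 CPM in controls, 20.7, 16.8 and 18.2 CPM with PLX3397 and 11.9 to 13.8 CPM with sorafenib, without overlap (-0.58 ± 0.07, adjusted p = 2.22e-04). The chemokine Ccl9 fell by 1.15 (SE 0.15) and the T-cell attractant Cxcl9 by 0.86 (SE 0.20). Of 30 interferon-stimulated genes 8 fell and 0 rose (median -0.24), among them Bst2 (-0.82 ± 0.13), which tethers budding viruses, and Oasl1 (-1.35 ± 0.21).

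Among the largest falls were also Slamf9, Wfdc17, Cd83 and Cyth4, genes known mainly from immune cells. Cyth4, an exchange factor of blood cells, was 11 to 13.4 CPM in the 6 libraries without sorafenib and 3.29 to 6.12 CPM in those with it (-1.52 ± 0.12, adjusted p = 1.00e-05). Slamf9 fell by 1.76 (SE 0.23), Wfdc17 by 1.66 (SE 0.20) and Cd83, a marker of activated antigen-presenting cells, by 1.53 (SE 0.19), each without overlap. Macrophage markers moved with these genes, and their part in the result was not tested.

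**Figure D3:**
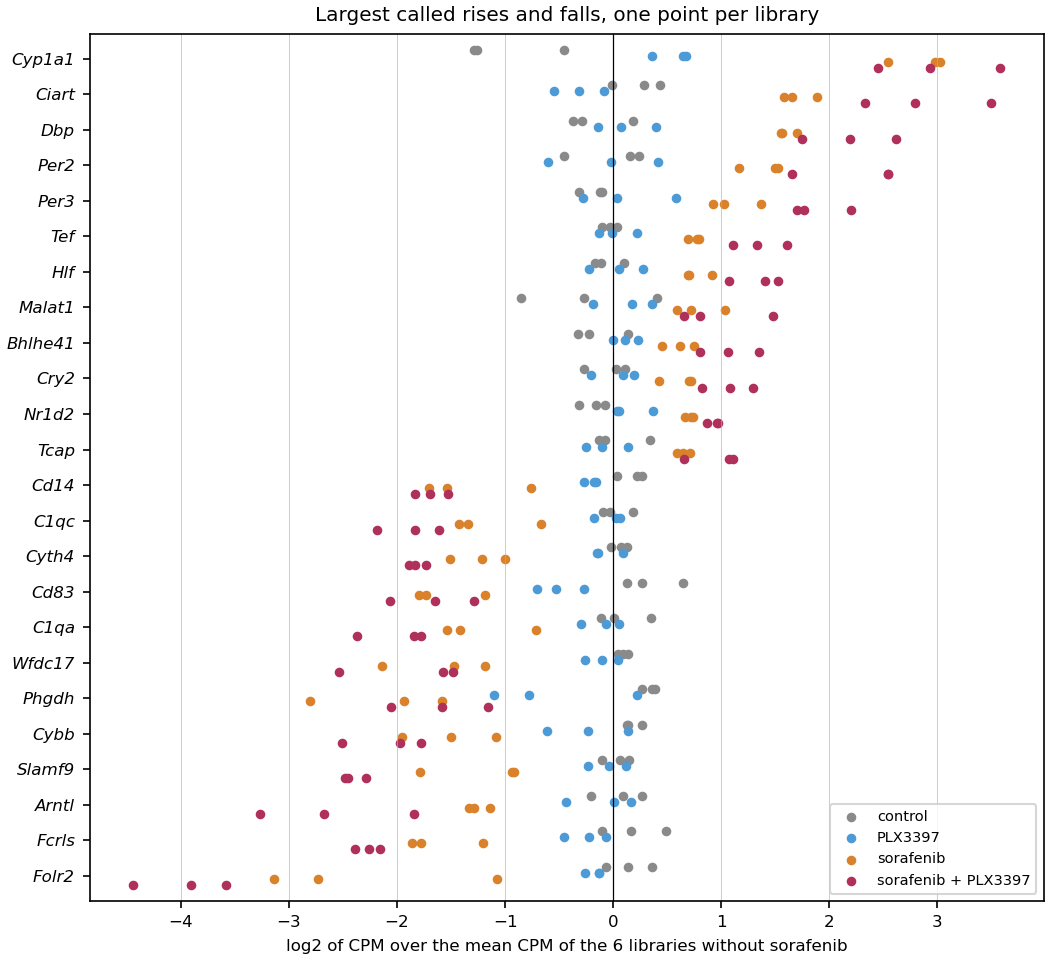
Log2 of CPM over the mean of the 6 libraries without sorafenib, 1 point per library, for the 12 largest rises and 12 largest falls among called genes of at least 1 FPKM whose groups did not overlap. The rises run from Cyp1a1 (3.13) to Tcap (0.81) and the falls from Folr2 (-2.90) to Cd14 (-1.46).

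Genes of cell division fell nearly as a set. Of 29 tested, 26 fell, 1 rose and 2 were not called (median -1.29). In 20 the groups did not overlap, against 4.1% of all genes tested. Top2a, the topoisomerase of dividing cells, was 10.2, 7.91 and 9.07 CPM in controls and 12.5, 9.76 and 10 CPM with PLX3397. It was 3.26, 3.38 and 4.08 CPM with sorafenib and 2.53, 2.36 and 4.32 CPM with both. The lowest library without sorafenib was well above the highest with it, and the log2 fold change was -1.58 ± 0.16 (adjusted p = 7.55e-05). Tpx2, a spindle factor, fell by 1.60 (SE 0.16), the mitotic kinase Bub1 by 1.76 (SE 0.22), the kinase Cdk1 by 1.72 (SE 0.25) and Mki67, the source of the Ki-67 antigen, by 1.2 (SE 0.20). Among genes of DNA replication Mcm3 fell by 0.95 (SE 0.14), Mcm2 by 0.44 (SE 0.11) and Pcna by 0.29 (SE 0.07), while Tyms and Rrm2, which supply nucleotides, were not called. The 1 rise was Cenpf, a kinetochore protein, at 0.63 ± 0.12 (adjusted p = 0.00386). Between 24 and 27 members fell when 1 library was left out, and between 6 and 27 over all alternatives. Levels were low, since all 29 together summed to 141 to 203 CPM without sorafenib and 90.4 to 115 CPM with it, and the cells that carry them were not resolved in whole heart.

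Signalling downstream of the kinases that sorafenib blocks was examined through the feedback genes of the ERK pathway, which cells switch on when ERK is active. Of 16 tested, 5 fell and 0 rose (median -0.36). Dusp6, a phosphatase of ERK, was 18.5, 20.2 and 21.6 CPM in controls, 21.3, 17.3 and 20.2 CPM with PLX3397, 13.6, 16.4 and 12.8 CPM with sorafenib, and 10.8, 12.8 and 11 CPM with both. The groups did not overlap (-0.63 ± 0.09, adjusted p = 6.76e-04). Spry4 (-0.71 ± 0.11, adjusted p = 0.00136) and Spred1 (-0.33 ± 0.06, adjusted p = 0.00358), inhibitors of RAS signalling, fell without overlap too. Spry1 (-0.04 ± 0.08), Spry2 (0.02 ± 0.11), Spred2 (-0.02 ± 0.09) and Etv5 (0.05 ± 0.11) were not called. Of 17 immediate early genes 5 fell and 0 rose (median -0.64), led by Egr3 (-1.07 ± 0.19) and Junb (-0.49 ± 0.09). Of 11 genes for kinases that sorafenib inhibits 2 fell, Kdr, the main VEGF receptor (-0.51 ± 0.13, adjusted p = 0.0271), and Pdgfrb (-0.37 ± 0.09, adjusted p = 0.0189), a count that was 1 without any 1 of 7 libraries. The share of this list called was 18.2%, against 11.7% of all genes tested. Braf (0.19 ± 0.09) was not called.

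Genes of the unfolded protein response and the folding machinery of the endoplasmic reticulum were lower. Of 19 tested 13 fell and 0 rose (median -0.43). Sdf2l1, a chaperone partner, was 7.81, 10.9 and 19.8 CPM in controls, 9.85, 14.1 and 7.59 CPM with PLX3397, 5.92, 5.28 and 5.75 CPM with sorafenib and 4.03, 4.45 and 3.34 CPM with both (-1.30 ± 0.21, adjusted p = 0.00179). The controls spread widely, with replicate 3 highest, yet no sorafenib library reached any of them. The secreted factor Manf fell by 1.19 (SE 0.22), Hspa5, the chaperone BiP, by 0.59 (SE 0.13) and Xbp1, a transcription factor of the response, by 0.54 (SE 0.11). Herpud1 went the other way at 0.38 ± 0.12 and was not called. Leaving out 1 library gave 10 to 12 falls, and a built-in change of 1.5-fold left 0. The related integrated stress response had 5 of 19 members fallen and 0 risen (median -0.13), among them Atf3 (-1.28 ± 0.28), Slc7a5 (-0.69 ± 0.15) and Atf4 (-0.25 ± 0.07). These falls numbered 3 without control replicate 2 or 3, PLX3397 replicate 1 or sorafenib replicate 1 or 2.

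Phgdh, the first enzyme of serine synthesis, was 7.81, 7.34 and 7.97 CPM in controls, 7.10, 3.55 and 2.84 CPM with PLX3397, and 0.874 to 2.73 CPM in the 6 sorafenib libraries (-1.73 ± 0.31, adjusted p = 0.00351). PLX3397 replicate 1 sat with the controls and replicates 2 and 3 between them and the sorafenib libraries, the order also seen on the first principal component. Psat1, the next enzyme, fell by 0.69 (SE 0.14), and the other 10 genes of that list were not called. Of 8 Schwann cell genes tested 3 fell, Mbp and Cnp among them, and 1 fell in 10 of the 12 fits that left out a library, all except those without PLX3397 replicate 2 or 3. Mbp, for myelin basic protein, was 59.8, 55.7 and 59.2 CPM in controls, 52.3, 18.9 and 17.7 CPM with PLX3397 and 17.9 to 29.4 CPM with sorafenib, so that PLX3397 replicates 2 and 3 overlapped the sorafenib libraries (-0.93 ± 0.25, adjusted p = 0.0401).

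Some heart muscle genes rose, by little. Of 22 cardiomyocyte markers 10 rose, 0 fell and 12 were not called, with a median of 0.24. Myh6, the main adult myosin heavy chain, was 8644, 7105 and 7678 CPM in controls, 8088, 9742 and 11005 CPM with PLX3397, 11530, 12005 and 10999 CPM with sorafenib and 15183, 12132 and 10473 CPM with both. PLX3397 replicate 3 overlapped the sorafenib libraries, and the log2 fold change was 0.47 ± 0.09 (adjusted p = 0.00572). Of 23 genes of thin filament, Z-disc and titin 12 rose and 0 fell (median 0.21). Tcap, the cap of titin at the Z-disc, rose most, from 588 to 886 CPM without sorafenib to 1057 to 1510 CPM with it, without overlap (0.81 ± 0.11, adjusted p = 7.36e-04). Ttn, titin itself, was 0.52 ± 0.15 (adjusted p = 0.0434) and Actn2, the Z-disc actinin, 0.28 ± 0.06 (adjusted p = 0.0105). Other sarcomere genes were not called, among them Tnni3 (-0.07 ± 0.07), Myl2 (0.04 ± 0.08) and Tnnc1 (-0.04 ± 0.09).

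Of 18 genes of the intercalated disc and dystrophin complex 8 rose and 0 fell (median 0.22). Dmd, dystrophin, was 34.7, 30.7 and 26.4 CPM in controls, 33.7, 46.8 and 45.8 CPM with PLX3397 and 48.0 to 64.7 CPM with sorafenib, without overlap (0.70 ± 0.10, adjusted p = 7.01e-04). The adhesion molecules Cdh2 and Dsg2 rose by 0.31 ± 0.06 and 0.45 ± 0.10. The muscle lists were sensitive to single libraries. Cardiomyocyte markers that rose numbered 5 without PLX3397 replicate 1 and 6 without replicate 1 of the libraries with both agents. For thin filament and Z-disc genes these numbers were 5 and 7, and 7 again without sorafenib replicate 2, and for the intercalated disc 5 without sorafenib replicate 2 and 5 without replicate 1 of the libraries with both agents. On FPKM values with 0.5 added 3 members rose in each of the 3 lists.

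Among calcium handling genes 5 of 18 rose and 1 fell. Cacna1c, the pore of the L-type calcium channel, was 101 to 160 CPM without and 176 to 197 CPM with sorafenib, without overlap (0.48 ± 0.08, adjusted p = 0.00136), and its subunit Cacnb2 rose by 0.63 ± 0.08 (adjusted p = 3.97e-04). Pln, phospholamban, rose by 0.25 ± 0.06. Calcium handling rises numbered 8 without replicate 3 of the libraries with both agents. Of 21 channel genes 6 rose and 2 fell, and the rises numbered 3 without replicate 1 of the libraries with both agents. Kcnj8 and Abcc9 can form a potassium channel of vessel mural cells. Kcnj8 fell from 37.3 to 48.7 CPM down to 19.9 to 29.2 CPM (-0.86 ± 0.10, adjusted p = 1.50e-04). Abcc9 rose by 0.64 ± 0.17 (adjusted p = 0.0306), a call lost in 10 of 26 alternatives. The cells that carry either RNA were not resolved in whole heart.

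Readouts of heart stress were named whatever their result. Myh7, the fetal myosin chain, rose by 0.45 ± 0.12 (adjusted p = 0.0288), with 307 to 450 CPM without and 435 to 684 CPM with sorafenib, and was no longer called with the length trend removed (0.38, adjusted p = 0.106). The microRNA gene Mir208b, which lies within Myh7 and shares its strand, rose by 1.21 ± 0.23 (adjusted p = 0.00386), but at 0.800 to 3.61 CPM its reads cannot be separated from the transcript of its host. Nppa, atrial natriuretic peptide, was 778, 331 and 521 CPM in controls, 175, 136 and 234 CPM with PLX3397, 1324, 251 and 152 CPM with sorafenib and 300, 224 and 280 CPM with both. It was not called (0.32 ± 0.50, adjusted p = 0.746), and without sorafenib replicate 1, its highest library, the value was -0.28. The 13 natriuretic peptide and atrial genes, Nppa included, summed to 910 to 1717 CPM in controls and 459 to 676 CPM with PLX3397. Their sum was 412 to 2787 CPM with sorafenib and 405 to 637 CPM with both agents. The part of atrial tissue in these values was not tested. Nppb was not called either (-0.49 ± 0.33, adjusted p = 0.390), with control replicate 3 at 377 CPM above all others (96.3 to 175 CPM), and without that library its value was -0.06.

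Pde2a, the phosphodiesterase of the study's title, which breaks down cAMP when cGMP is bound, was 62.9, 49.5 and 57.6 CPM in controls, 68.8, 63.9 and 44.5 CPM with PLX3397, 76.2, 76.5 and 66.9 CPM with sorafenib and 56.9, 59.8 and 56.2 CPM with both agents. It was not called in the average (0.17 ± 0.11, adjusted p = 0.350), and its effect was 0.37 without and -0.03 with PLX3397. Whole heart does not show its level in macrophages. Among all 19 phosphodiesterase genes tested 3 rose and 3 fell. Pde3a, a cAMP phosphodiesterase of heart muscle, rose by 0.41 ± 0.09 without overlap (adjusted p = 0.0090). Pde1c rose by 0.41 ± 0.07 and Pde7a by 0.49 ± 0.09, both with overlap, and Pde1b fell by 0.86 (SE 0.19). In the pathway that makes cAMP, Adcy6, an adenylate cyclase of the heart, was 93.4 to 136 CPM without and 133 to 208 CPM with sorafenib (0.65 ± 0.09, adjusted p = 3.70e-04). Of 20 genes of that list 20% were called, against 11.7% of all genes tested. In it 2 rose and 2 fell, numbers that ran from 1 to 6 and from 0 to 2 with 1 library left out. The 6 rises came without PLX3397 replicate 3, 4 came without sorafenib replicate 3 or replicate 3 of the libraries with both agents, and 1 without control replicate 3, sorafenib replicate 1 or replicate 1 of the libraries with both agents. Falls numbered 0 or 1 without any 1 of 9 libraries. Phosphodiesterase falls numbered 1 without any 1 of 7 libraries.

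**Figure D4:**
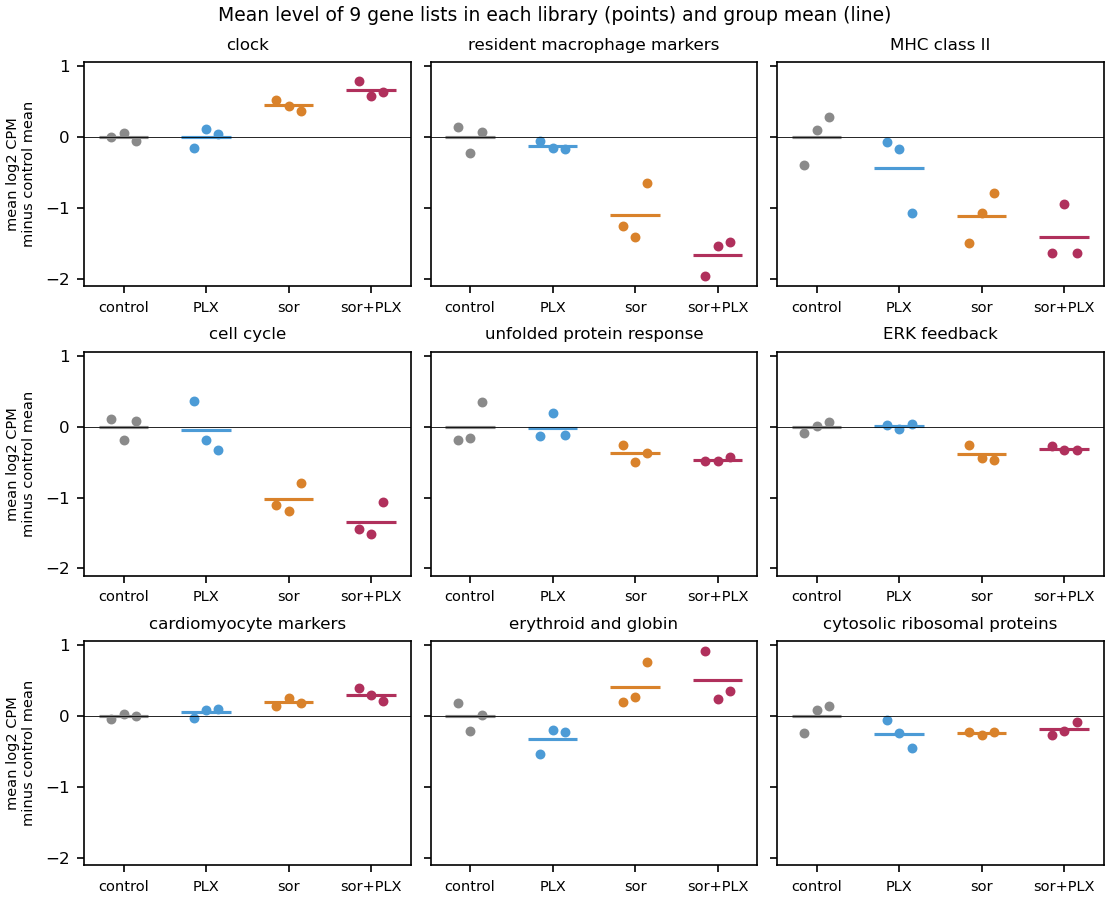
Mean log2 CPM of the tested genes of 9 lists in each library, minus the control mean (points, with the group mean as a line), on 1 shared vertical scale. Clock genes lie at 0.38 to 0.80 in the 6 sorafenib libraries and resident macrophage markers at -1.96 to -0.65, while the ribosomal proteins of all groups overlap.

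Metabolic genes moved little. Of 31 genes of fatty acid uptake and oxidation 7 rose and 0 fell (median 0.09), such as the fatty acid transporter Slc27a1 (0.42 ± 0.09) and lipoprotein lipase Lpl (0.33 ± 0.07). Of 21 glycolytic genes 7 rose and 1 fell, and of 26 of the citrate cycle and pyruvate dehydrogenase 5 rose and 0 fell, Pdk1 and Pdk2, brakes on pyruvate entry, by 0.33 ± 0.06 and 0.25 ± 0.05. On FPKM values 0 genes of fatty acid oxidation and 0 of glycolysis rose, and the medians of fatty acid oxidation (-0.03) and of the citrate cycle (-0.01) changed sign, so no direction is given for these lists. Glycolytic rises numbered 2 without PLX3397 replicate 1 or replicate 1 of the libraries with both agents, and 4 without sorafenib replicate 2 or replicate 2 of the libraries with both agents. Citrate cycle rises numbered 3 without PLX3397 replicate 1, sorafenib replicate 2 or replicate 1 of the libraries with both agents, 9 without PLX3397 replicate 3 and 10 without replicate 3 of the libraries with both agents. Ppargc1a, a master regulator of mitochondrial genes, rose by 0.53 ± 0.09 (adjusted p = 0.00241) from 49.2 to 80.1 CPM to 79.6 to 96.2 CPM, while of 54 nuclear genes of the respiratory chain 1 rose and 1 fell. Cholesterol and fatty acid synthesis had 7 of 19 genes fallen and 1 risen (median -0.31). Sqle, squalene epoxidase, was 3.65 to 5.51 CPM without and 2.21 to 2.81 CPM with sorafenib (-0.85 ± 0.14, adjusted p = 0.00136). The count of falls was 4 without PLX3397 replicate 1 and 4 without replicate 1 of the libraries with both agents. Of 45 cytosolic ribosomal protein genes, 30 mitochondrial ones and 27 proteasome genes 0 were called, with 1, 3 and 7 at an unadjusted p under 0.05 and medians of -0.10, -0.05 and -0.09. DESeq2 called 0, 0 and 1, and FPKM with 0.5 added 2, 9 and 7, all as falls.

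Vessel and matrix genes went both ways. Of 18 endothelial markers 2 rose and 4 fell (median 0.00). Cldn5, the tight junction protein of endothelium, was 29.5, 29.7 and 34.8 CPM in controls, 26.6, 22.9 and 21.7 CPM with PLX3397 and 14.2 to 18.3 CPM with sorafenib, without overlap (-0.72 ± 0.10, adjusted p = 4.47e-04), while the transcription factors Erg and Sox17 rose by 0.53 ± 0.12 and 0.45 ± 0.10. Of 20 angiogenic ligand and tip-cell genes 2 rose and 2 fell, with 14 below 0 and a median of -0.09. The share called was 20%, against 11.7% of all genes tested. Vegfa and Pgf, ligands of the VEGF receptors, rose by 0.25 ± 0.07 and 0.71 ± 0.18. Esm1 of the same list fell (-1.27, adjusted p = 0.0422), a call lost in 10 of 25 alternatives. With 1 library left out, 1 to 2 genes of this list rose and 0 to 4 fell. The endothelial falls numbered 2 without PLX3397 replicate 1 or replicate 1 of the libraries with both agents. Of 28 matrix and fibrosis genes 4 fell and 1 rose, so 17.9% were called, against 11.7% of all genes tested. The falls numbered 2 without control replicate 1, any library with PLX3397 alone, sorafenib replicate 3 or replicate 2 of the libraries with both agents. Sparc, a collagen-binding protein, was 233 to 310 CPM without and 141 to 230 CPM with sorafenib, and did not overlap (-0.54 ± 0.08, adjusted p = 7.24e-04), and Col3a1 fell by 0.53 (SE 0.15), a call lost in 11 of 26 alternatives. Col1a1 (-0.18 ± 0.12, adjusted p = 0.383) and Postn (-0.32 ± 0.24, adjusted p = 0.449), markers of scar formation, were not called. In basement membrane, Col4a1 fell by 0.55 (SE 0.13) and Lama5 rose by 0.50 ± 0.11. In the BMP pathway 4 of 21 genes rose and 0 fell, the ligand Bmp4 from 1.72 to 3.21 CPM to 3.19 to 5.97 CPM (1.17 ± 0.16, adjusted p = 4.33e-04) and the receptors Bmpr2 and Bmpr1a by 0.37 ± 0.08 and 0.26 ± 0.06. Bmpr2 was no longer called with the length trend removed. The share of this list called was 19%, against 11.7% of all genes tested.

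Single members of further lists stood out. Foxo3, a transcription factor of autophagy genes, was 42.2 to 55.9 CPM without and 66.3 to 101 CPM with sorafenib (0.76 ± 0.07, adjusted p = 2.88e-05), while the other 19 genes of autophagy and mitophagy were not called. Klf9 and Zbtb16, genes that glucocorticoids induce, rose by 0.43 ± 0.06 (adjusted p = 3.28e-04) and 1.85 ± 0.34 (adjusted p = 0.00877), and Sgk1 and Cdkn1a of the same list fell by 0.52 (SE 0.13) and 0.90 (SE 0.16). Of the 15 glucocorticoid-responsive genes 2 rose and 3 fell, and the falls numbered 1 to 4 with 1 library left out. Hspb7, a small heat shock protein of heart muscle, rose by 0.79 ± 0.10 (adjusted p = 3.47e-04), while the other 15 of 16 cytosolic heat shock genes were not called (list median -0.05). Of 18 genes of apoptosis and necroptosis 1 rose, 3 fell and 14 were not called (median -0.15). Bax fell by 0.49 (SE 0.09) and Mcl1, a survival factor, rose by 0.27 ± 0.05. The share of this list called was 22.2%, against 11.7% of all genes tested. Of 25 chromatin, Mediator and coactivator genes 8 rose and 0 fell (median 0.25), among them Kmt2a (0.55 ± 0.12), and this count ran from 4 without sorafenib replicate 1 or without replicate 1 of the libraries with both agents to 16 without PLX3397 replicate 3, with 5 without control replicate 2, PLX3397 replicate 1 or sorafenib replicate 2. Of all genes in the longest of the 5 bins by exon length 12.4% rose, against 5.43% of all genes tested. Malat1, a long nuclear RNA, was 37.1 to 88.7 CPM without and 101 to 187 CPM with sorafenib (0.92 ± 0.22, adjusted p = 0.0229).

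Red cell genes rose in a heart whose blood content was not measured. Of 9 erythroid and globin genes 5 rose and 0 fell (median 0.65). Hba-a1, an alpha globin gene, was 451, 444 and 625 CPM in controls, 378, 462 and 487 CPM with PLX3397, 565, 623 and 849 CPM with sorafenib and 1117, 648 and 673 CPM with both (0.65 ± 0.17, adjusted p = 0.0322). Control replicate 3 overlapped the lower sorafenib libraries. The near-identical Hba-a2 may share its reads. The count of rises was 1 without control replicate 2 and 2 or 3 without sorafenib replicate 3 or any library with PLX3397 alone.

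**Figure D5:**
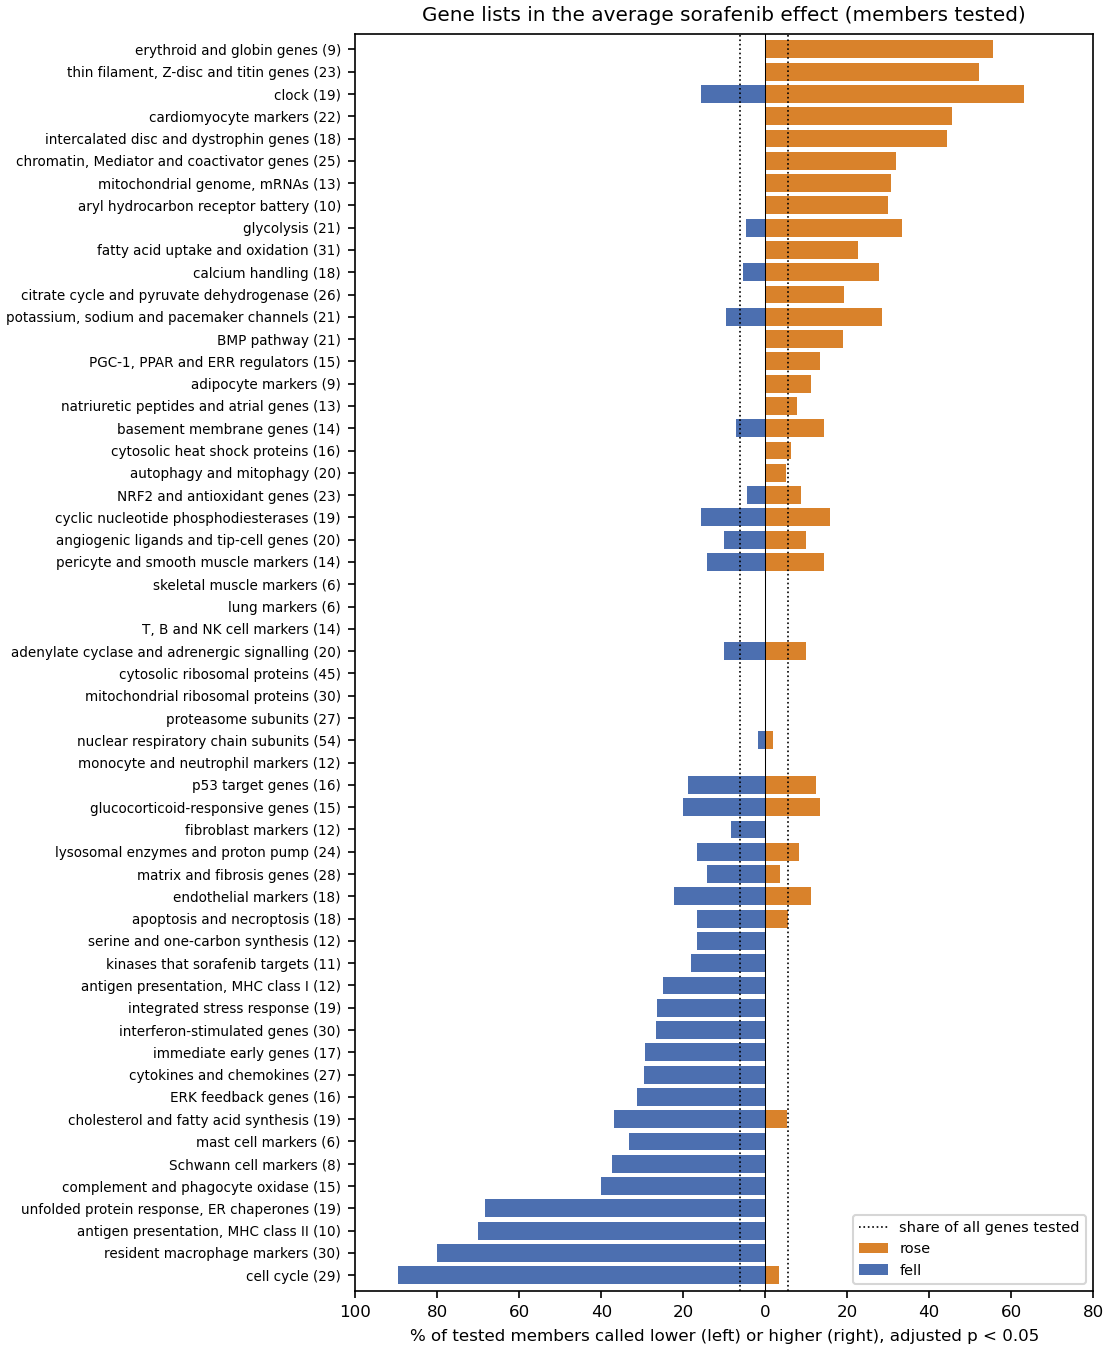
Share of the tested members of each list with at least 5 (number in brackets) that fell (left) or rose (right), with dotted lines at the shares over all genes tested, 6.28% and 5.43%. Of the lists plotted, cell cycle, resident macrophage and MHC class II reach furthest left, and clock, erythroid and thin filament furthest right.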

How the data were processed

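Heart RNA was sequenced after poly(A) selection on oligo(dT) beads with a dUTP second strand, per the labels' protocols. The deposited table gave estimated counts and FPKM for 30199 genes per library. The submitters' processing notes name mm10, DESeq2 and edgeR, while aligner, counter and use of strand are not stated there or in the labels. The deposited counts were whole numbers that piled up at multiples of 4 (12143 values of 4 against 5303 of 3 and 3364 of 5), so counts divided by 4 were one alternative. Deposited FPKM values, scaled for gene length and library size per the file headers, set the level of at least 1 FPKM for named genes and served limma 3.58.1 as an alternative.

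Counts were fitted in R 4.3.3 with edgeR 4.0.16 (filterByExpr with a minimum count of 10 and total of 15, TMM, robust quasi-likelihood fit, two-sided test, adjusted p under 0.05). Standard errors were derived from the F statistic. CPM values are TMM-scaled. The comparisons without and with PLX3397 were fitted on their own 6 libraries. On simulated counts the average fit recovered 74.6%, 95.5% and 98.5% of genes changed 1.5, 2 and 4-fold. The simulation changed only genes of at least 1 FPKM and held no outlying library, so these shares need not hold for the libraries here. Exon lengths came from GENCODE vM21, which held 99.7% of the identifiers.

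Named were 10 genes whatever their result, the 12 largest rises and falls without overlap, up to 4 called members per list by p, and other list members. The 57 lists and the members were chosen with earlier results of these data known. Alternatives also included DESeq2 1.42.0, other filters and scalings, and leaving out each library. Some results are not reported here.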

Additional observations from a re-analysis of the deposited data

How the results depend on the processing

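None of the 2213 called genes changed direction in any alternative in which it was tested. Of 174 named genes that were called, 29 kept their call in every alternative and 92 in every one except the test with a built-in 1.5-fold change, which called 73 genes (13 higher, 60 lower). DESeq2's test gave 1561 rises. On FPKM the rises and falls were 343 and 2562 with 0.5 added, 338 and 2512 with 0.1 added, and the rises 177 with no filter. Without the PLX3397 term there were 647 rises. Leaving out 1 library gave 1239 to 2737 calls, 610 to 1451 rises and 622 to 1286 falls. Nppa, not called, was -0.058 in all 3 FPKM fits and -0.28 to 0.57 with 1 library left out, lowest without sorafenib replicate 1. Sorafenib against control gave 1700 calls with DESeq2 (838 higher, 862 lower), 762 with no filter (374 higher), and 28 to 1316 with 1 library left out (12 to 775 higher, 15 to 553 lower). Sorafenib with PLX3397 against PLX3397 gave 1201 with DESeq2 (479 higher, 722 lower) and 79 to 355 with 1 library left out (17 to 98 higher, 62 to 257 lower). The interaction gave 5 calls with DESeq2 (2 higher, 3 lower) and 0 to 2 with 1 library left out (0 to 2 higher, 0 to 2 lower).

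No pairing by replicate number was seen. Same-numbered libraries had correlations of deviations from -0.10 to 0.064, and 1 of 12 correlated best with its own number. Whether a number marks a shared litter, batch or day is not labelled, and with 3 libraries a group these correlations cannot decide it. With the replicate block 1780 genes were called (796 higher, 984 lower), sorafenib against control gave 303 rises, and sorafenib with PLX3397 against PLX3397 gave 124 calls (32 higher, 92 lower). The cause of these shifts was not tested. Depth was alike in all libraries and limits scarce genes, such as those of lymphocytes and mast cells.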

Other observations

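Among the 132 genes called both without and with PLX3397, 86 were in none of the lists, and the following were chosen after their values were seen. Actb, beta-actin, had an average log2 fold change of -0.61 ± 0.07 (adjusted p = 1.50e-04), with -0.50 without and -0.72 with PLX3397. Tmsb4x, thymosin beta 4, which binds free actin, was at -0.64 ± 0.08, Cfl1, cofilin, at -0.56 ± 0.07, Arpc5, a subunit of the actin-branching complex, at -0.51 ± 0.06, and Tuba1a, an alpha-tubulin, at -0.60 ± 0.09. Coro6, a coronin that binds actin, was at 0.79 ± 0.10, with overlap. In the 5 genes that were lower the 6 sorafenib libraries lay below the other 6. The sphingosine receptor S1pr3 was at -0.93 ± 0.10 and Nostrin, which binds endothelial nitric oxide synthase, at -0.94 ± 0.13.

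Rbm20, which controls titin splicing, was at 0.49 ± 0.07, with 0.48 without and 0.50 with PLX3397, and its groups overlapped. Rbm24, another RNA-binding protein, was at 0.50 ± 0.06. Usp2, a deubiquitinase whose level follows the clock in several mouse tissues, was at 0.79 ± 0.12 (adjusted p = 0.00109), Pik3ip1, an inhibitor of PI3 kinase, at 0.70 ± 0.08, and Egln3, an oxygen-sensing hydroxylase, at 0.62 ± 0.09.

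Predicted genes, kept out of the named rises by rule, held some of the largest increases. Gm10800 was 1.46, 0.800 and 1.14 CPM in controls, 2.09, 5.33 and 3.79 CPM with PLX3397, 7.99, 9.45 and 7.06 CPM with sorafenib and 12.3, 14.2 and 14.7 CPM with both agents (2.34 ± 0.24, adjusted p = 1.50e-04). Gm21738 (2.42 ± 0.30) and Gm10722 (3.05 ± 0.60) were called both without and with PLX3397 as well. The groups overlapped in Gm21738, and Gm10722 reached at most 1.03 CPM in any library. Of 13 such genes looked up after their values were seen, 8 were tested, of which 5 rose and 0 fell. Such predicted genes can share reads with near-identical copies, so their values are uncertain.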
